A study of Sus scrofa with 599 samples.

Results

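Mesenteric fat (MAD), a visceral adipose tissue (VAT), was compared with the upper layer of backfat (ULB), a subcutaneous adipose tissue (SAT), in pigs on a normal diet (NC). All 12 NC MAD and 5 NC ULB libraries whose column names matched a deposited sample were taken from the tables of protein-coding genes (PCGs). They were 17 of the 236 RNA-seq libraries of the series, and the Hi-C samples of the same numbers were 17 of 240. By the study's methods, all pigs were adult females of the Bama miniature breed, 2 years old, and the NC animals received no high-fat diet, unlike those of the weight-gain (WG) and weight-loss (WL) groups. The other VATs and the WL group were not analysed here, and the WG samples (36 MAD and 38 ULB libraries) are used only at the end. The ULB replicates were numbers 2, 5, 7, 9 and 12, and their values are given in that order. By the study's methods every carcass gave all of its depots, so MAD and ULB samples share pigs, but no label ties a sample to a pig, and the tests below treat the samples as independent.

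White adipose depots store triglyceride and release fatty acids, but they arise from different embryonic mesenchyme, and their stromal cells keep the developmental transcription factors of the place they formed. Fat of the mesentery lies in a fold of peritoneum that carries the vessels, nerves and lymphatics of the gut, and drains into the portal vein. Backfat lies under the skin and is held in a dense collagen network. Homeobox genes of the HOX clusters mark the position along the body axis, and EN1 and the IRX and ZIC genes pattern the back and limbs of the embryo.

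Kallisto estimated counts summed to between 8005550 and 22939420 per library over PCGs, and expression is given in TPM, which scales read counts by transcript length and by library. Adipocyte markers were abundant in both tissues, with ADIPOQ, the adiponectin gene, at 1510 to 7691 TPM in MAD and at 2383 to 5187 TPM in ULB. NC MAD replicate 1 stood apart: its 14 smooth muscle and pericyte markers summed to 20954 TPM against 712 to 5779 in the other 11 MAD libraries, and its 12 adipocyte markers to 4322 TPM against 9165 to 22636. The mitochondria-encoded genes took 1.89% to 3.77% of TPM in MAD 3, 6 and 10 and in ULB 2 and 7, and 13% to 37.4% in the other 12 libraries. PCGs held 75.7% to 84.6% of TPM in MAD 5 and 7 and in ULB 5 and 9, and 91.9% to 96.5% elsewhere. The same libraries had the fewest estimated counts, at most 10201039 each against at least 13428842 elsewhere. Genes of the liver, a list added after the data were seen, summed to 152 to 3376 TPM in MAD and 257 to 2268 TPM in ULB. Bulk RNA cannot tell fewer cells of a type from less RNA per cell.

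Among 13990 PCGs that exceeded 0.5 TPM in 80% or more of the libraries of either tissue, 443 (3.17%) were higher in MAD and 639 (4.57%) in ULB, with more than a 1.5-fold difference and an adjusted p under 0.05 (edgeR quasi-likelihood test with Benjamini-Hochberg adjustment). These 1082 genes (7.73%) are called DEGs below, and every log2 fold change is MAD over ULB. The median log2 fold change of all tested genes was 0.01, and 50.8% lay above 0. The TPM of 268 genes (1.92%) did not overlap between the 12 and the 5 libraries, 262 of them DEGs. Without ULB 7, the counts fell to 226 and 398, of which 220 and 381 were among the 443 and 639. Without MAD 5 and 7 and ULB 5 and 9, where PCGs held the least TPM, 329 and 521 genes passed. Of these, 196 and 419 were among the 443 and 639, and 1 of the 1082 DEGs had the opposite sign there. Without MAD 1, in a fit chosen after seeing the data, 464 and 642 genes passed. Within the 12 libraries of high mitochondrial share, 269 and 385 genes passed, and within the 5 of low share 126 and 251, both chosen after seeing the data.

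Transcription factors of embryonic position split by depot. Of 14 tested factors of visceral mesenchyme, 8 were higher in MAD and 1 in ULB, with a median log2 fold change of 2.07. This and the other gene lists were chosen with earlier results of these data known, and 23 genes of this list were in the data. Genes near 0 in one tissue, such as NKX2-3 and TCF21 in ULB, entered the test through the other tissue alone. The list counts therefore describe the lists and are no independent test. Within the libraries of high mitochondrial share 4 of them were higher in MAD, and within those of low share 6. NKX2-3, a homeobox gene of gut and spleen mesenchyme, lay between 3.18 and 24.5 TPM in MAD, with a median of 9.77. In ULB it was listed at 0.0436, 0, 0, 0.205 and 0 TPM, which is 4.33 estimated counts over all 5 libraries. No ULB library reached the lowest MAD library, and the fitted log2 fold change was 7.71 ± 0.74 (SE, adjusted p = 1.27e-06, edgeR). A fitted change of this size depends on the prior count, because the gene is near 0 in one tissue, and is not a bound. TCF21, a bHLH factor of visceral and cardiac mesenchyme, lay between 2.10 and 22.1 TPM in MAD (median 7.97) and was at 0, 0.213, 0, 0.0803 and 0 TPM in ULB. Its groups did not overlap either (log2 fold change 7.26 ± 0.83, adjusted p = 1.11e-05, edgeR). HAND2, a factor of neural crest and gut mesenchyme, did not overlap, at 1.49 to 85.4 TPM (median 4.74) against 0.362, 0, 0.418, 0.331 and 0 TPM, and its highest value was that of MAD 1. Without MAD 1 the log2 fold change of HAND2 was 5.12, in place of 5.98 ± 1.35 (adjusted p = 0.00878, edgeR), and within the libraries of high mitochondrial share it missed the threshold (adjusted p = 0.0752, edgeR).

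WT1, which marks mesothelium and the visceral fat progenitors derived from it, lay between 6.0 and 16.2 TPM in MAD (median 8.46) and at 0.238, 0.963, 0.0975, 2.38 and 0.627 TPM in ULB. The groups did not overlap (log2 fold change 3.36 ± 0.53, adjusted p = 4.08e-04, edgeR). Of the 8 mesothelial markers tested, WT1 and RSPO1, a secreted activator of WNT signaling, were higher in MAD and none was lower. The summed TPM of the mesothelial markers overlapped, at 42.1 to 238 in MAD and 37.1 to 122 in ULB, and its part in the WT1 difference was not tested. RSPO1 missed the threshold without ULB 2 (adjusted p = 0.0554, edgeR) and without ULB 7 (adjusted p = 0.0593, edgeR). MEIS1, a HOX cofactor, was higher in every MAD library (43.7 to 134 TPM, median 61.0) than in any ULB library (12.8, 13.4, 9.54, 10.1 and 15.9 TPM), with a log2 fold change of 2.47 ± 0.27 (adjusted p = 5.01e-06, edgeR). GATA6, a zinc finger factor of visceral tissues and peritoneal macrophages, overlapped between 2.65 to 13.9 TPM in MAD and 2.0, 1.04, 1.80, 1.92 and 5.6 TPM in ULB, and passed (log2 fold change 1.66 ± 0.39, adjusted p = 0.0109, edgeR), but not within the libraries of high mitochondrial share (1.63, adjusted p = 0.0665, edgeR).

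On the other side, 13 of 19 factors of subcutaneous and dorsal patterning were higher in ULB and 1 in MAD, with a median log2 fold change of -2.07, and 12 and 11 were higher in ULB within the libraries of high and of low mitochondrial share. The single factor of the visceral list that was higher in ULB was ZIC1. ZIC1, a zinc finger factor of the dorsal neural tube and somites, was listed at 0 in 8 of 12 MAD libraries and reached 0.242 TPM in the others. In ULB it was at 22.7, 14.4, 22, 12.0 and 26.9 TPM, so that every ULB library lay far above every MAD library (fitted log2 fold change -8.49 ± 0.54, adjusted p = 6.79e-09, edgeR). Its neighbor ZIC4 was at 0 in 8 MAD libraries and at 4.94, 2.32, 5.54, 4.09 and 7.22 TPM in ULB. IRX2, one of the Iroquois homeobox genes, was at 0 in 9 MAD libraries and at no more than 0.101 TPM in the rest, against 5.77, 5.98, 6.89, 5.28 and 6.88 TPM in ULB (fitted log2 fold change -7.91 ± 0.53, adjusted p = 1.20e-08, edgeR). All 3 genes were listed at 0 in most MAD libraries and in no ULB library.

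IRX1, EN1 and IRX3 were detected in more of the MAD libraries and still did not overlap. IRX1 lay between 0 and 0.944 TPM in MAD (median 0.203) and at 10.5, 10.4, 11.7, 8.75 and 14.7 TPM in ULB (log2 fold change -5.34 ± 0.49, adjusted p = 8.18e-07, edgeR). EN1, a homeobox gene, lay between 0.0406 and 1.07 TPM in MAD (median 0.314) and at 12.4, 8.36, 14.5, 7.31 and 13.7 TPM in ULB (log2 fold change -4.91 ± 0.41, adjusted p = 2.32e-07, edgeR). The ranges of both genes lay well apart. IRX3 lay in MAD at 1.15 to 8.53 TPM (median 3.92), and was at 14.1, 14.8, 15.6, 15.4 and 15.5 TPM in ULB (log2 fold change -1.80 ± 0.30, adjusted p = 6.34e-04, edgeR). All 5 ULB values of IRX3 fell within a narrow band above the MAD range. The factor of this list that was higher in MAD was TBX1, also a lymphatic endothelial marker, at 0.889 to 6.47 TPM (median 2.22) in MAD and 1.00, 1.05, 1.55, 0.742 and 0.844 TPM in ULB. These ranges overlapped, and TBX1 (log2 fold change 1.41 ± 0.40, adjusted p = 0.0329, edgeR) missed the threshold without ULB 2, 5, 9 or 12, at adjusted p between 0.0569 and 0.0807.

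**Figure D1:**
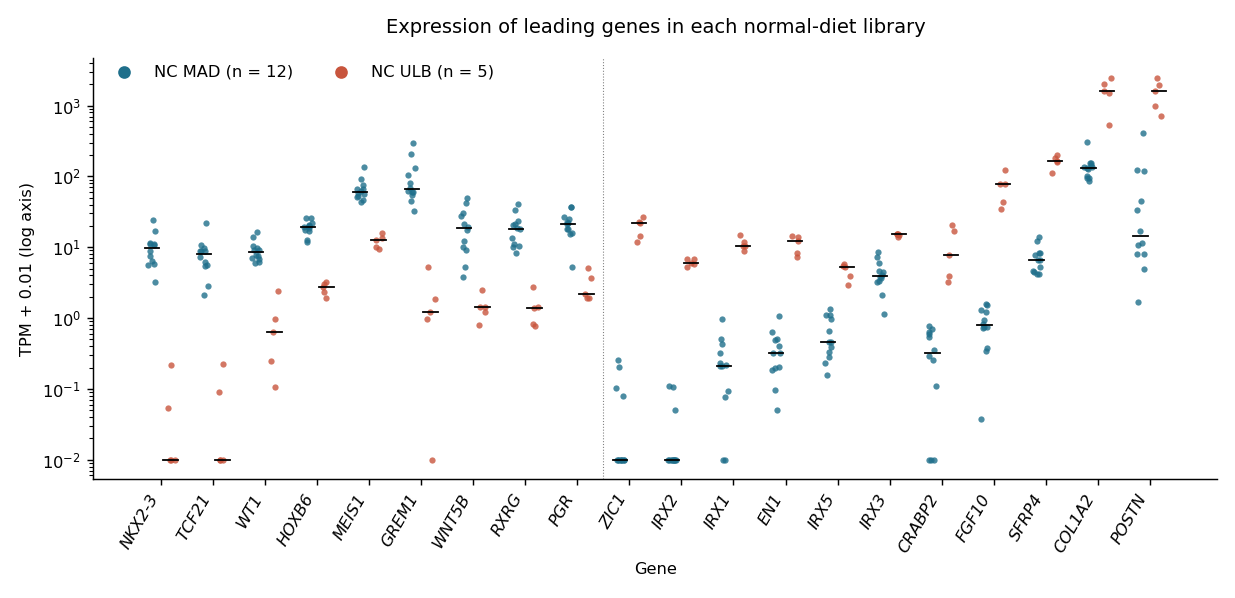
TPM + 0.01 on a log axis of 20 genes in each of the 12 NC MAD (blue) and 5 NC ULB (red) libraries, with a line at each group's median. The 9 genes left of the dotted line were higher in MAD and the 11 at its right higher in ULB, and points on the lowest level are libraries listed at 0.

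The HOX clusters differed from each other. Of 7 tested HOXB genes, 6 were higher in MAD and none in ULB (median log2 fold change 1.76), while of 5 tested HOXD genes none was higher in MAD and 3 were higher in ULB (median -1.94). No gene of 6 in HOXA or of 5 in HOXC passed, with medians of 0.43 and -0.06. HOXB6 lay between 11.7 and 26.1 TPM in MAD (median 19.5) and at 3.06, 1.90, 2.33, 3.20 and 2.70 TPM in ULB, without overlap (log2 fold change 2.83 ± 0.23, adjusted p = 1.31e-07, edgeR). HOXB4, HOXB7 and HOXB8 did not overlap either, with log2 fold changes of 1.76 ± 0.30, 1.16 ± 0.19 and 3.11 ± 0.53. HOXB5 overlapped and changed by 2.59 ± 0.62. HOXD8 was the most abundant of these genes in ULB, at 105, 77.4, 111, 59.4 and 71.6 TPM, against 4.41 to 60.3 TPM in MAD (median 14.6). The top of the MAD range came just above the lowest ULB library (log2 fold change -2.23 ± 0.37, adjusted p = 5.45e-04, edgeR). HOXD9 and HOXD10 also overlapped, with log2 fold changes of -1.94 ± 0.30 and -2.23 ± 0.64, and HOXD10, at 2.72 TPM or less, was below the level filter without ULB 2, 7, 9 or 12. Within the 5 libraries of low mitochondrial share, only 2 HOXB genes and no HOXD gene passed, while the medians were 1.92 and -1.61. HOXA5 (0.42 ± 0.33, adjusted p = 0.495, edgeR) and HOXC9 (-1.31 ± 0.62, adjusted p = 0.213, edgeR) are values that did not pass.

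Secreted signals that instruct mesenchyme split in both directions. Of 26 tested WNT and BMP ligands and secreted inhibitors, 5 were higher in MAD and 4 in ULB (median log2 fold change 0.18), and within the libraries of high mitochondrial share 3 and 2. GREM1, an inhibitor of BMP ligands, lay between 32.2 and 293 TPM in MAD (median 66.1) and at 1.21, 0.948, 5.25, 1.82 and 0 TPM in ULB. The lowest MAD library was thus above every ULB library (log2 fold change 5.79 ± 0.86, adjusted p = 1.96e-04, edgeR). WNT5B, a ligand of non-canonical WNT signaling, lay between 3.84 and 49.0 TPM (median 18.4) in MAD against 0.779, 1.19, 1.43, 1.41 and 2.48 TPM in ULB, again without overlap (log2 fold change 3.78 ± 0.54, adjusted p = 1.21e-04, edgeR). SFRP4, a secreted WNT inhibitor, went the other way, at 4.14 to 13.9 TPM in MAD (median 6.54) and 112, 201, 164, 158 and 184 TPM in ULB (log2 fold change -4.48 ± 0.27, adjusted p = 3.96e-09, edgeR). FGF10, a growth factor that supports preadipocytes, was at 0.0281 to 1.56 TPM in MAD (median 0.777) and at 125, 77.1, 34.3, 43.5 and 79.3 TPM in ULB (log2 fold change -6.37 ± 0.45, adjusted p = 2.33e-08, edgeR). No MAD library came near the lowest ULB library for either gene. Its relative FGF1 was higher in MAD, at 19.3 to 157 TPM (median 47.1) against 12.1, 4.68, 7.88, 9.35 and 3.58 TPM (log2 fold change 2.82 ± 0.45, adjusted p = 3.91e-04, edgeR). SLIT1, a guidance ligand for axons and cells, lay between 2.57 and 25.6 TPM in MAD and at no more than 0.22 TPM in ULB (fitted log2 fold change 7.38 ± 0.70, adjusted p = 1.15e-06, edgeR).

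Retinoic acid controls adipocyte differentiation and regional identity, and its genes also split. Of 16 tested genes of retinoid metabolism and signaling, 5 were higher in MAD and 3 in ULB (median log2 fold change 0.47), and within the libraries of high mitochondrial share 2 and 2. ALDH1A2, which makes retinoic acid, lay between 24 and 60.8 TPM in MAD (median 38.9) and at 8.41, 13.9, 8.52, 6.57 and 6.73 TPM in ULB. RXRG, a retinoid X receptor, lay between 8.30 and 41 TPM in MAD (median 18.3) and at 0.760, 2.77, 0.825, 1.42 and 1.40 TPM in ULB. Neither gene overlapped (log2 fold changes 2.16 ± 0.26 and 3.73 ± 0.41, adjusted p = 1.73e-05 and 6.73e-06, edgeR). Higher in ULB were CRABP2, which carries retinoic acid to the nucleus, RARRES1, a gene induced by retinoids, and CYP26B1, which degrades retinoic acid. CRABP2 lay between 0 and 0.75 TPM in MAD (median 0.313) and at 3.88, 7.69, 16.9, 20.7 and 3.18 TPM in ULB (log2 fold change -4.85 ± 0.57, adjusted p = 1.53e-05, edgeR). RBP4, the plasma retinol carrier, overlapped, at 28.4 to 190 TPM in MAD (median 154) and 29.7, 38.6, 34.4, 30.3 and 95.8 TPM in ULB (log2 fold change 1.59 ± 0.37, adjusted p = 0.0113, edgeR). The liver also makes RBP4, and the highest ULB value was that of ULB 12, where the liver list summed to 2268 TPM, and the part of these transcripts in the RBP4 value was not tested. Within the libraries of high mitochondrial share RBP4 missed the threshold (adjusted p = 0.156, edgeR).

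The collagen genes that passed were all higher in ULB. Of 21 tested collagen genes, 11 were higher in ULB and none in MAD, with a median log2 fold change of -1.01, and the collagens summed to 2004 to 4347 TPM in MAD and 7663 to 15243 TPM in ULB. COL1A2, a chain of type I collagen, lay between 85.4 and 309 TPM in MAD (median 133) and at 2017, 531, 2464, 1589 and 1488 TPM in ULB. COL3A1, the chain of type III collagen, lay between 378 and 1545 TPM in MAD (median 699) and at 4687, 2880, 6795, 5535 and 6516 TPM in ULB. Every ULB library exceeded every MAD library for both chains (log2 fold changes -3.58 ± 0.26 and -2.80 ± 0.27, adjusted p = 5.00e-08 and 1.50e-06, edgeR). COL1A1, its partner in type I collagen, spread more among ULB libraries, at 307, 770, 460, 2132 and 1801 TPM, against 21.8 to 188 TPM in MAD (log2 fold change -3.52 ± 0.43, adjusted p = 2.45e-05, edgeR). COL6A3, a chain of type VI collagen around adipocytes, lay between 32.3 and 128 TPM in MAD and at 231, 441, 390, 521 and 584 TPM in ULB (log2 fold change -2.15 ± 0.25, adjusted p = 1.06e-05, edgeR). Without MAD 1 the 11 calls became 11 and the median -1.07, within the libraries of high mitochondrial share 10 passed, and within those of low share 6.

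Of 32 other matrix genes and matrix enzymes, 6 were higher in ULB and none in MAD, while 26 did not pass (median log2 fold change -0.32, with 34.4% of the genes above 0). They were POSTN, MMP2, MMP14, LOX, SPARC and DCN, and none of the 6 overlapped. POSTN, the matricellular protein periostin, lay between 1.67 and 415 TPM in MAD (median 14.3) and at 2489, 708, 1593, 1942 and 979 TPM in ULB (log2 fold change -4.52 ± 0.91, adjusted p = 0.00374, edgeR). Its highest MAD value was that of MAD 1, the next was 124 TPM, and without MAD 1 the log2 fold change was -5.48. Within the libraries of high mitochondrial share it was -4.03 and missed the threshold (adjusted p = 0.0679, edgeR). LOX, which crosslinks collagen, lay between 31.5 and 85.7 TPM in MAD and at 368, 189, 245, 146 and 185 TPM in ULB (log2 fold change -2.18 ± 0.23, adjusted p = 4.30e-06, edgeR). MMP2, a gelatinase, lay between 81.7 and 180 TPM in MAD and at 449, 865, 441, 783 and 1077 TPM in ULB (log2 fold change -2.54 ± 0.22, adjusted p = 2.76e-07, edgeR). Thus both a crosslinking enzyme and matrix proteases were higher in the tissue with more collagen transcript. MGP, an inhibitor of calcification, was higher in MAD, at 730 to 2785 TPM (median 954) against 495, 351, 370, 428 and 507 TPM (log2 fold change 1.43 ± 0.27, adjusted p = 0.00244, edgeR). Among other abundant genes above all MAD libraries in ULB were APOD, a lipocalin (45.1 to 265 TPM in MAD and 760 to 1251 TPM in ULB, log2 fold change -2.95 ± 0.35), and MYOC, myocilin (21.7 to 122 and 355 to 1052 TPM, -3.78 ± 0.30).

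Fibroblast and progenitor markers moved in both directions. Of 12 tested, 5 were higher in ULB and 1 in MAD. PI16, a marker of universal fibroblast progenitors, was the one higher in MAD, at 34.8 to 341 TPM (median 173) against 29.1, 21.4, 24.4, 39.8 and 34.2 TPM (log2 fold change 2.57 ± 0.39, adjusted p = 2.77e-04, edgeR). Its ranges met at their edge. FMO2, a flavin monooxygenase of adipose stroma, lay between 14.3 and 60.1 TPM in MAD and at 204, 154, 166, 156 and 146 TPM in ULB, with no overlap (log2 fold change -2.25 ± 0.27, adjusted p = 1.80e-05, edgeR). PDGFRA, the common receptor of adipose progenitors, was at 43.9 to 107 TPM in MAD and 94.0, 52.0, 115, 67.0 and 68.7 TPM in ULB, with fully overlapping ranges (log2 fold change -0.26 ± 0.19, adjusted p = 0.455, edgeR).

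**Figure D2:**
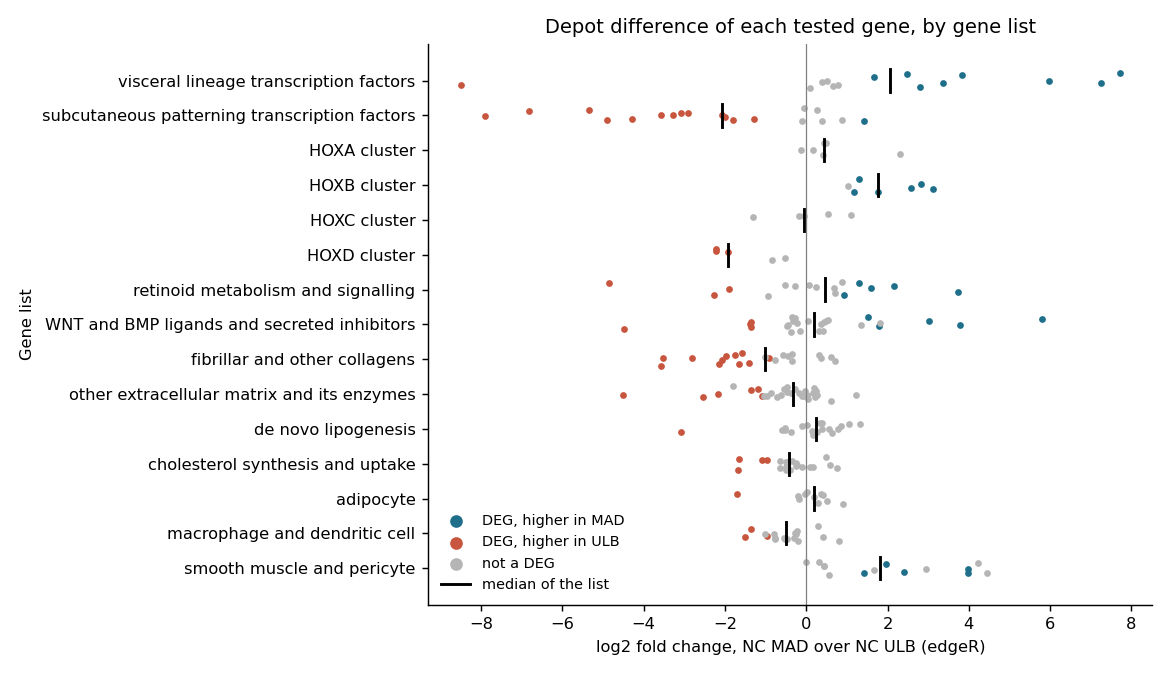
Log2 fold change of NC MAD over NC ULB (x axis, edgeR) for each tested gene of 15 gene lists (y axis), blue and red for DEGs higher in MAD and in ULB, grey for other genes, and a black bar at each list's median. The visceral and subcutaneous factor lists have medians of 2.07 and -2.07, the HOXB and HOXD clusters 1.76 and -1.94, and the collagens -1.01.

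Genes of adipocyte metabolism differed little in number. Of 20 tested genes of de novo lipogenesis, 1 was higher in ULB and none in MAD. Of 15 lipolysis genes 1 and of 25 genes of triglyceride synthesis and fatty acid uptake 2 were higher in MAD and none in ULB, and of 23 genes of fatty acid oxidation 1 was higher in ULB. The background was 3.17% of all tested genes higher in MAD and 4.57% higher in ULB, and such counts of 0 to 2 genes a list do not set these lists apart from it. Of the 11 tested adipocyte markers only LEP passed. FABP4, PLIN1 and PPARG had log2 fold changes of -0.19 ± 0.27, 0.29 ± 0.25 and 0.03 ± 0.23, with adjusted p values of 0.737, 0.528 and 0.964 (edgeR), and FASN, fatty acid synthase, 0.39 ± 0.49 (adjusted p = 0.693, edgeR).

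SCD, the desaturase that makes oleate from stearate, was the lipogenic gene that passed. It lay between 16.3 and 1361 TPM in MAD (median 462) and at 4656, 3305, 14177, 833 and 4961 TPM in ULB. ULB 9 fell inside the MAD range and the other ULB libraries above it (log2 fold change -3.08 ± 0.68, adjusted p = 0.00735, edgeR). Without ULB 7, the library with the highest value, the change was -2.40 and missed the threshold (adjusted p = 0.0544, edgeR), as it did within the libraries of high mitochondrial share (-2.0, adjusted p = 0.201, edgeR). The genes higher in MAD were MGLL, which cleaves monoglycerides (log2 fold change 1.03 ± 0.25, adjusted p = 0.0153, edgeR), PLIN5, a lipid droplet protein (1.14 ± 0.28, adjusted p = 0.0151, edgeR), and SLC27A1, a fatty acid transporter (0.88 ± 0.22, adjusted p = 0.0153, edgeR). SLC27A1 missed the threshold without ULB 2 (adjusted p = 0.0516, edgeR). Within the libraries of high mitochondrial share no gene of the triglyceride synthesis and uptake list passed, PLIN5 and SLC27A1 included. Over all alternative fits, MGLL lost its call in 2, and PLIN5 and SLC27A1 in 3 each. OXCT1, which uses ketone bodies, was 592 TPM at the median of MAD and 1389, 823, 1392, 963 and 885 TPM in ULB (log2 fold change -0.83 ± 0.25, adjusted p = 0.0465, edgeR), with overlap, and missed the threshold without ULB 2, 7 or 9 (adjusted p between 0.0804 and 0.146).

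Cholesterol synthesis and uptake leaned to ULB: of 22 tested genes 4 were higher in ULB and none in MAD, the median log2 fold change was -0.43, and 22.7% of the genes lay above 0 against 50.8% of all genes. Within the libraries of high mitochondrial share 1 gene of the list passed. IDI1, an isomerase of the pathway's isoprenoid steps, lay between 35.9 and 91.4 TPM in MAD (median 56.9) and at 154, 73.3, 180, 101 and 105 TPM in ULB. Only ULB 5 fell inside the MAD range (log2 fold change -0.97 ± 0.23, adjusted p = 0.0138, edgeR). IDI1 missed the threshold without ULB 2 or 7 (adjusted p = 0.0571 and 0.0774, edgeR) and within the libraries of high mitochondrial share (0.162). LSS, the lanosterol synthase gene, with a log2 fold change of -1.09 ± 0.33 (adjusted p = 0.0475, edgeR), missed it without ULB 2, 7 or 12 (0.0530 to 0.329).

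Of 16 tested adipokine genes, LEP, CCL2 and METRNL were higher in ULB and RBP4 in MAD. LEP, leptin, lay between 16.5 and 138 TPM in MAD (median 78.3) and at 249, 293, 458, 207 and 141 TPM in ULB. CCL2, the monocyte chemoattractant, lay between 9.42 and 95.9 TPM in MAD (median 35.9) and at 149, 133, 101, 164 and 108 TPM in ULB. Neither gene overlapped, though the closest libraries lay near each other (log2 fold changes -1.71 ± 0.37 and -1.63 ± 0.37, adjusted p = 0.00616 and 0.00890, edgeR). LEP missed the threshold within the libraries of high mitochondrial share (-1.54, adjusted p = 0.0843, edgeR). METRNL missed it without ULB 2 or 7 (adjusted p = 0.0698 and 0.167, edgeR). In the IGF axis, where 2 of 19 genes were higher in MAD and 3 in ULB, the related proteases PAPPA and PAPPA2, which cleave IGF binding proteins, changed in opposite directions. PAPPA was at 0.990 to 7.18 TPM in MAD and 0.638 to 2.01 TPM in ULB (log2 fold change 1.59 ± 0.39, adjusted p = 0.0162, edgeR), and PAPPA2 at 0 to 0.721 and 1.22 to 2.95 TPM (-2.61 ± 0.49, adjusted p = 0.00201, edgeR). PAPPA missed the threshold without ULB 7 (adjusted p = 0.0542, edgeR). IGFBP5, a substrate of such proteases, was higher in ULB (-1.59 ± 0.42, adjusted p = 0.0229, edgeR) and missed it without ULB 9 or 12 (0.0767 and 0.0607).

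The sex steroid receptors differed in opposite directions in these female pigs. PGR, the progesterone receptor, lay between 5.29 and 37.4 TPM in MAD (median 21.6) and at 1.91, 3.71, 2.16, 1.89 and 5.05 TPM in ULB, where the highest ULB library came close to the lowest MAD library (log2 fold change 2.92 ± 0.35, adjusted p = 1.79e-05, edgeR). ESR1, the estrogen receptor that induces PGR in many tissues, was lower in MAD, at 1.51 to 7.22 TPM (median 4.86) against 11.5, 4.86, 12.7, 6.35 and 15 TPM (log2 fold change -1.10 ± 0.26, adjusted p = 0.0118, edgeR). The ranges of ESR1 overlapped, and within the libraries of high mitochondrial share it missed the threshold (-0.82, adjusted p = 0.194, edgeR). NR3C1, the glucocorticoid receptor, had an adjusted p of 0.0247 (edgeR) at a log2 fold change of -0.51 ± 0.14, below the fold limit.

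Markers of immune cells passed in some lists only, where 3.17% of all tested genes were higher in MAD and 4.57% in ULB. None of 10 B cell and 18 T cell and NK cell markers passed. Of 18 macrophage and dendritic cell markers, CD9, MRC1 and CD14 were higher in ULB. The median over this list was a log2 fold change of -0.50, and 16.7% of the genes lay above 0. MRC1, the mannose receptor of tissue macrophages, lay between 22.7 and 98.4 TPM in MAD (median 43.1) and at 236, 93.8, 154, 62.6 and 76.3 TPM in ULB (log2 fold change -1.36 ± 0.31, adjusted p = 0.00970, edgeR). Its ranges overlapped, and without ULB 2, the highest library, the change was -0.95 (adjusted p = 0.0691, edgeR). CD14 missed the threshold without ULB 2, 5 or 7 (adjusted p between 0.0621 and 0.0997, edgeR). CD163, a scavenger receptor of the same cells, had a log2 fold change of -0.26 ± 0.32 (adjusted p = 0.686, edgeR). Of 7 neutrophil and mast cell markers, KIT and MS4A2 were higher in ULB. KIT, the stem cell factor receptor, lay between 3.53 and 20.1 TPM in MAD and at 33.2, 16.6, 17, 22 and 14.5 TPM in ULB (log2 fold change -1.30 ± 0.37, adjusted p = 0.0328, edgeR), and missed the threshold without ULB 2, 7 or 9 (adjusted p between 0.0532 and 0.137). MS4A2, a chain of the mast cell IgE receptor, with a log2 fold change of -0.87 ± 0.27 (adjusted p = 0.0493, edgeR), missed it without ULB 5, 7, 9 or 12 (0.0813 to 0.175) and without MAD 1 (0.0632). Both had overlapping ranges. In the complement system 3 of 18 genes were higher in ULB and 1 in MAD. MASP1, a protease of the lectin pathway, did not overlap, at 0.804 to 4.87 TPM in MAD (median 2.09) and 14.4, 18, 26, 6.75 and 24.8 TPM in ULB (log2 fold change -2.97 ± 0.27, adjusted p = 8.18e-07, edgeR). The other 3 overlapped and each missed the threshold when a library was left out: C2 without ULB 2, 7 or 12 (adjusted p between 0.0560 and 0.187), C4A without ULB 7, 9 or 12 (0.0784 to 0.156) and C7, higher in MAD, without ULB 12 (0.0504).

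Smooth muscle genes leaned to MAD. Of 14 tested smooth muscle and pericyte markers, 5 were higher in MAD and none in ULB, with a median log2 fold change of 1.82. SYNPO2, an actin-bundling protein, lay between 101.5 and 873 TPM in MAD (median 205) and at 75.8, 56.7, 50.4, 79.5 and 60.9 TPM in ULB, without overlap (log2 fold change 1.97 ± 0.43, adjusted p = 0.00710, edgeR). CSPG4, the pericyte proteoglycan NG2, lay between 8.37 and 32.3 TPM in MAD and at 3.72, 4.40, 5.53, 4.26 and 9.34 TPM in ULB (log2 fold change 1.41 ± 0.27, adjusted p = 0.00254, edgeR). MYH11, smooth muscle myosin, was at 44.3 to 5531 TPM in MAD, the highest in MAD 1, and at 31, 53.8, 32.7, 54.8 and 84.0 TPM in ULB. The highest of the other 11 MAD libraries was 1477 TPM, the ranges overlapped, and the log2 fold change of 3.98 ± 1.19 (adjusted p = 0.0423, edgeR) was 2.75 without MAD 1 (adjusted p = 0.035). MYH11 missed the threshold without any one of the 5 ULB libraries, at adjusted p between 0.0767 and 0.116. Without MAD 1, 5 markers passed and the median was 1.52, and within the libraries of high mitochondrial share 1 passed at a median of 2.16. Of 12 blood endothelial markers only TEK, the angiopoietin receptor, passed (log2 fold change 0.95 ± 0.20, adjusted p = 0.00546, edgeR), while PECAM1, common to all endothelium, had a log2 fold change of 0.04 ± 0.17. Of 8 lymphatic markers FLT4, the receptor of VEGF-C, and TBX1 were higher in MAD. FLT4 lay between 3.72 and 21.4 TPM in MAD (median 7.15) and at 1.49, 2.54, 3.56, 1.97 and 4.25 TPM in ULB, with slight overlap (log2 fold change 1.78 ± 0.37, adjusted p = 0.00467, edgeR).

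Among the leading genes higher in ULB were 2 PCGs without a symbol in the reference table. ENSSSCG00000006725 lay between 0.0248 and 0.375 TPM in MAD and at 65.7, 66.2, 61.9, 68.3 and 73.2 TPM in ULB (fitted log2 fold change -8.51 ± 0.33, adjusted p = 2.32e-12, edgeR). ENSSSCG00000035033 was at 0 in 9 MAD libraries and at 494, 2.63, 302, 4.22 and 143 TPM in ULB, so that ULB libraries ranged from 2.63 to 494 TPM while no MAD library exceeded 1.07 TPM.

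Hi-C captures contacts between parts of the genome, and the authors scored each 20-kb bin by an A-B index. Above 0 a bin contacts mainly the A compartment, which holds active and open chromatin, and below 0 mainly the B compartment, which is inactive and compact. Of 113298 autosomal bins, 8572 (7.57%) passed an adjusted p of 0.05 with a higher index in MAD and 6061 (5.35%) with a higher index in ULB (limma). Of them, 5462 (4.82%) and 4183 (3.69%) kept one compartment in over 80% of the samples of each tissue and differed by more than 0.75, and are called A/B variables (8.51% in all). Bins in opposite compartments in over 80% of the samples of each tissue are called A/B switches: 228 (0.201%) were A in MAD and B in ULB, and 122 (0.108%) the reverse. The direction of all 3 counts turned with the scale. After quantile normalization 8835 and 9188 bins passed (49.0% higher in MAD, against 58.6% as deposited), the A/B variables were 5047 higher in MAD and 5339 in ULB, and 180 bins were A in MAD and B in ULB against 237 the reverse. With the replicate number as a block, where the 5 numbers that occur in both tissues carry the depot difference, no bin passed (limma, lowest adjusted p = 0.0656), and 19.7% of the bins had an unadjusted p below 0.05 (11491 higher in MAD and 10799 in ULB) against 28.6% without the block. None of the 16 index differences at named genes that passed without the block passed with it (adjusted p between 0.0656 and 0.288), and all 16 had the same sign. ULB 5 had the smallest share of A bins, 42.9% against 45.1% to 48.5% in the other ULB and 45.4% to 49.0% in the MAD samples, and without it 45.6% of the bins past the threshold were higher in MAD (4343 and 5172 bins). Without ULB 12, 5161 and 3907 bins passed, without ULB 2, 8432 and 3773, and without ULB 7, 8152 and 3800. Without ULB 5 the A/B variables were 2956 and 3940 and without ULB 12 they were 3471 and 3015. Without ULB 2 the switches were 439 and 145, and without ULB 5 they were 241 and 208.

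The index differed in the direction of expression at the starts of DEGs. Over the 10424 tested genes placed on an autosome, the median index difference at the start was -0.12, and 39.6% were higher in MAD. At the 348 placed DEGs higher in MAD the median was 0.10 and 56.6% were higher in MAD, and at the 525 DEGs higher in ULB the median was -0.29 and 29% were higher in MAD. Quantile normalization moved the median over all genes to 0.00, and those of the DEGs to 0.13 and -0.19. A higher index in MAD past the threshold was found at 10.1% of the DEGs higher in MAD against 3.69% of all tested genes, and a higher index in ULB at 16.2% of the DEGs higher in ULB against 7.69%.

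The switched bins formed 275 runs, 227 of them a single bin. Of the 10424 placed tested genes, 12 started in a bin that was A in MAD and B in ULB, and 4 in the reverse. Of the 12, 2 were DEGs, and all of the 4 were, so that 6 DEGs started in a switched bin. DEGs made up 7.73% of all tested genes. POSTN, KCNE4, IRX5 and IRX3 lay in B in MAD and A in ULB and were higher in ULB. KCND3 and NTN1 lay in A in MAD and B in ULB and were higher in MAD. The 250 bases upstream of 5 of these starts are shown because they are promoters at which a compartment and the expression of its gene both differed between the depots. They were read from the Sscrofa11.1 reference, matched to the RefSeq annotation by symbol, 5′ to 3′ on the strand of the gene, with matches to the CCAAT box (CCAAT) and the GC box (GGGCGG, or CCGCCC on the other strand) in capitals. They lie at chr11:13258974-13259223 (minus strand, POSTN), chr15:124910458-124910707 (plus strand, KCNE4), chr6:31044669-31044918 (plus strand, IRX3), chr4:108394437-108394686 (plus strand, KCND3) and chr12:54089194-54089443 (plus strand, NTN1).
POSTN: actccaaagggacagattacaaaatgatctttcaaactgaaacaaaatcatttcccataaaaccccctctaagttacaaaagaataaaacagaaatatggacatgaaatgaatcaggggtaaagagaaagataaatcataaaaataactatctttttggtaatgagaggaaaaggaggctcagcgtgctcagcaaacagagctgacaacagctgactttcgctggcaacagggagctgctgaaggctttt
KCNE4: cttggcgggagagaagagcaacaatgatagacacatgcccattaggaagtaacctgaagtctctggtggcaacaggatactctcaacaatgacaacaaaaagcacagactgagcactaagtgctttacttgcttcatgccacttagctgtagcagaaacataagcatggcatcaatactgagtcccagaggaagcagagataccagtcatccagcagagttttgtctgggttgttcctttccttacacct
IRX3: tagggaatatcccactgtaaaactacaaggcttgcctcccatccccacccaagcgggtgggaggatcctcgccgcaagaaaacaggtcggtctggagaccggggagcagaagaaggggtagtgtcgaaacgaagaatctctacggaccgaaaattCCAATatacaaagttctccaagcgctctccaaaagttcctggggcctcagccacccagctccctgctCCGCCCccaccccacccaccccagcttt
KCND3: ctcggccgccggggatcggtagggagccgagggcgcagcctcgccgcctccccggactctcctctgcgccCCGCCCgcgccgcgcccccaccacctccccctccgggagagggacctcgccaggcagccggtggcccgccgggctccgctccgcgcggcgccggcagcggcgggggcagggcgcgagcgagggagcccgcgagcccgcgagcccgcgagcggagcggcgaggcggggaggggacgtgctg
NTN1: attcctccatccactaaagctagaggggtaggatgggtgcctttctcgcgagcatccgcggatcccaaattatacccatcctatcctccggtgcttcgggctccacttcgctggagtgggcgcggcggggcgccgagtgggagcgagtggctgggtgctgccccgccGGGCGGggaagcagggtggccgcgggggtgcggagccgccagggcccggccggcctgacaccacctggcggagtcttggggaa

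The promoters differed widely in base composition. The 5 shown held between 1 (KCNE4) and 42 (KCND3) CpG dinucleotides and between 38% (POSTN) and 83.2% (KCND3) G and C, against a median of 16 CpG and 60.8% G and C over the promoters of the 10424 tested genes. As they are not all of the 6, nothing is read from how composition falls by tissue. The TATA box (TATAAA, searched on both strands, as were the others) was in none of the 5 and in 7.0% of all promoters. The GC box was in those of KCND3, NTN1 and IRX3 and in 56.7% of all, and the CCAAT box in that of IRX3 and in 32.5% of all. A match describes letters only.

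At the POSTN promoter the A-B index lay between -2.57 and 0.21 in MAD (median -1.34) and between 0.28 and 1.09 in ULB. No MAD sample reached the lowest ULB sample, and the mean difference was -2.01 ± 0.32 (SE, adjusted p = 8.21e-04, limma). At KCND3, a potassium channel subunit, it lay between 0.16 and 1.97 in MAD (median 1.13) and between -1.43 and -0.08 in ULB, without overlap (1.96 ± 0.26, adjusted p = 2.42e-04, limma). KCND3 sat in the longest switched run, 11 bins or 220 kb at chromosome 4, 108200001 to 108420000, and was expressed at 0.681 to 3.51 TPM in MAD and 0.498, 0.592, 0.232, 0.617 and 0.187 TPM in ULB (log2 fold change 2.03 ± 0.43, adjusted p = 0.00558, edgeR). IRX5 and IRX3, both on chromosome 6 but in separate switched bins, had mean index differences of -1.20 ± 0.26 and -0.83 ± 0.21 (adjusted p = 0.00633 and 0.0132, limma) and no overlap at either. KCNE4, a regulatory subunit of potassium channels, had a difference of -1.28 ± 0.36 (adjusted p = 0.0243, limma), with MAD samples from -1.80 to 1.04 overlapping the ULB range of 0.09 to 0.84. KCNE4 missed the threshold without ULB 7 (adjusted p = 0.0656, limma). At NTN1, the guidance ligand netrin-1, the ranges also overlapped, and the difference of 1.04 ± 0.32 (adjusted p = 0.0393, limma) missed the threshold without any one of the ULB samples (0.0635 to 0.0836).

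Some patterning genes differed in index without a switch. NKX2-3 lay between 0.94 and 2.52 in MAD and between -0.33 and 0.37 in ULB (difference 2.07 ± 0.24), and ZIC1 between -3.37 and -1.28 in MAD and between -0.65 and 0.44 in ULB (-2.03 ± 0.27). EN1 lay near 0 in MAD, with 7 of 12 samples in A, and between 1.58 and 2.07 in ULB (-1.79 ± 0.18). FGF10 was in B in every sample of both tissues, at -3.01 to -1.19 in MAD and -1.30 to -0.40 in ULB (-1.56 ± 0.26), with slight overlap. In all 4 the index and the transcript differed in the same direction. COL1A2, whose transcript differed by -3.58, had an index difference of -0.44 ± 0.33 (adjusted p = 0.405, limma), and GREM1, whose transcript differed by 5.79, had 0.43 ± 0.28 (adjusted p = 0.318, limma).

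**Figure D3:**
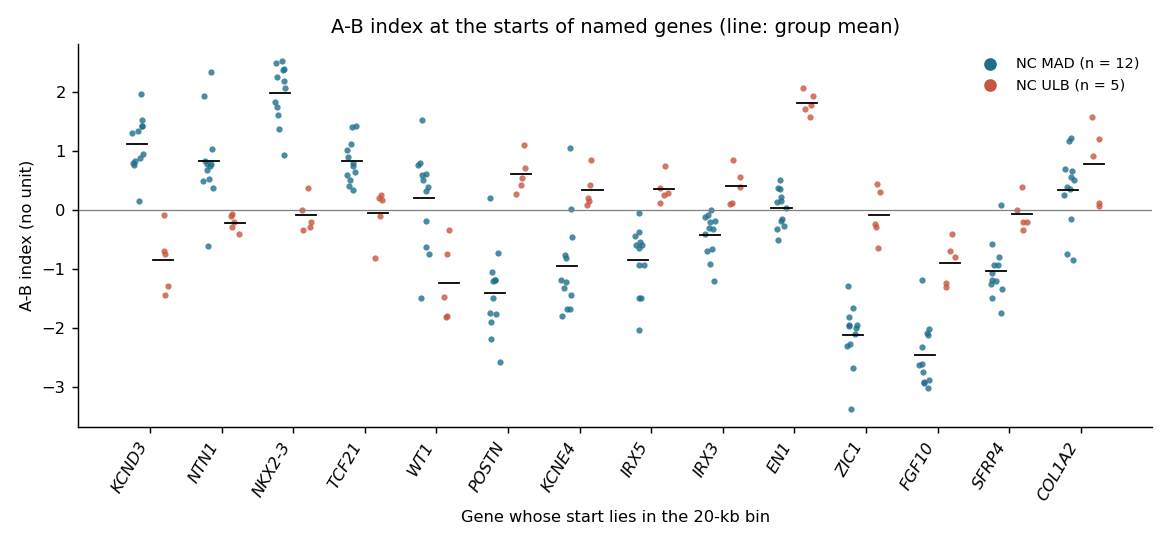
A-B index (y axis, no unit, above 0 A and below 0 B) of the 20-kb bin that holds the start of each of 14 genes, in 12 NC MAD (blue) and 5 NC ULB (red) samples, with a line at each mean. The means of KCND3 and NTN1 lie above 0 in MAD and below in ULB and those of POSTN, KCNE4, IRX5 and IRX3 the reverse, while single samples overlap at genes such as NTN1, KCNE4, FGF10 and COL1A2.

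Topologically associating domains (TADs), stretches of chromatin that contact themselves more than their surroundings, were called by the authors in each sample. MAD samples had 4566 to 4955 TADs (4778 ± 121, SD, n = 12) and ULB samples 5381 to 5689 (5577 ± 123, SD, n = 5). The groups did not overlap, and the difference of -799 TADs had p = 0.000323 in a 2-sided exact permutation test, the smallest this design can give. The median TAD length was 340 to 380 kb in MAD and 320 kb in every ULB sample. With any ULB sample left out, the difference lay between -847 and -770. Hi-C contact depth is not in the files used, and its part in the number of TADs was not tested. Of 14263 boundaries pooled within 100-kb windows, 406 (2.85%) were present in at least 70% of the samples of one tissue and under 30% of the other, 355 of them (2.49%) more often in ULB, the tissue with more TADs. A changed boundary lay within 100 kb of the start of 5.46% of the DEGs higher in MAD, 4.76% of those higher in ULB and 3.88% of all tested genes, so the shares were close to the background. With 1 ULB sample left out, 70% and 30% mean 3 and 1 of 4 samples, and 619 to 688 boundaries changed.

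**Figure D4:**
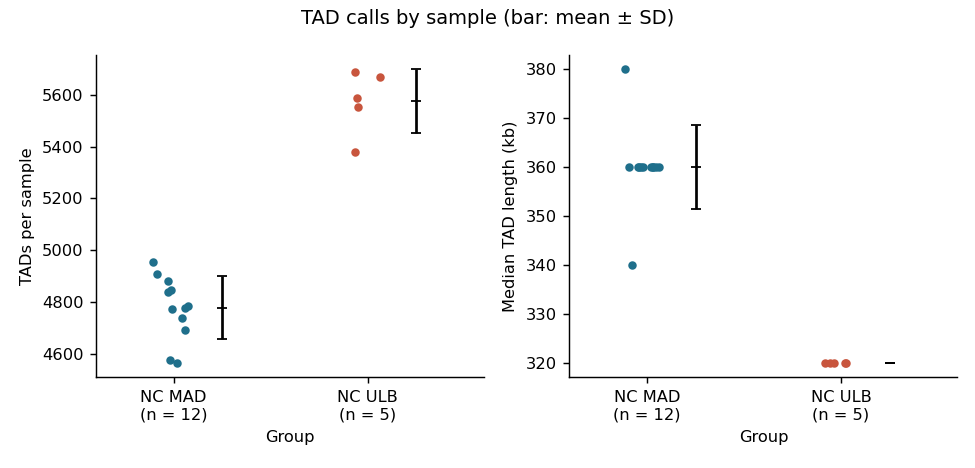
Number of TADs per sample (left) and median TAD length in kb (right) for 12 NC MAD and 5 NC ULB samples as points, with bars at mean ± SD. All 5 ULB samples lie at 5381 TADs or more and at 320 kb, and all MAD samples at 4955 TADs or fewer and at 340 kb or more. The axes do not start at 0.

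H3K27ac marks active enhancers, and the authors pooled the samples of each tissue before calling enhancer regions, so these values have no replicate error. The labels give 1 NC MAD and 3 NC ULB samples. Of 20646 regions in MAD, 77.9% overlapped a ULB region by at least 1 base, and of 19558 in ULB 78.2% overlapped a MAD region. Of the regions marked as super-enhancers, large clusters of enhancers, 76.4% of 932 in MAD and 70.1% of 998 in ULB overlapped one in the other tissue. Near the DEGs, a region within 10 kb in ULB and none in MAD was found at 7.62% of the genes higher in ULB, 3.74% of those higher in MAD and 2.30% of all tested genes. The reverse was found at 3.74% of the genes higher in MAD, 0.952% of those higher in ULB and 1.96% of all. At the genes higher in MAD both shares were thus the same. More summed signal in MAD than in ULB was found at 57.5% of the genes higher in MAD, 30.7% of those higher in ULB and 42.3% of all. Such sums also grow with the length called in each tissue.

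Several patterning genes had an enhancer region in one tissue only. NKX2-3 and TCF21 had 1 region in MAD and none in ULB. ZIC1, IRX1, IRX2, IRX5, EN1, POSTN and KCNE4 had 1 region in ULB and none in MAD, and that of EN1 was a super-enhancer. WT1 had a super-enhancer in MAD with a signal of 56141 (input 29064) over 195 kb, and 2 regions in ULB with 1804 in all (input 1520) over 9.0 kb. IRX3 had 1 region in each, with a signal of 792 in MAD (input 397) over 2.80 kb and 2859 in ULB (input 1050) over 5.40 kb.

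The depot difference was then set beside that of WG pigs on the high-fat diet, in 36 MAD and 38 ULB libraries, which the comparison above did not use. Of the 443 DEGs higher in MAD on the normal diet, 435 had the same sign in WG and 315 were DEGs there, against 7.58% of all tested genes that were DEGs higher in MAD in WG. Of the 639 higher in ULB, 628 had the same sign and 387 were DEGs there, against 6.47%. Over all tested genes, 50.5% were higher in MAD in WG. The WG fold changes and DEG calls came from a joint fit with the NC libraries. The median log2 fold changes were 1.34 in NC and 0.92 in WG for the first, and -1.14 and -0.73 for the second, where the genes had been chosen on their NC values. In the mean of WG libraries NKX2-3 was at 6.89 TPM in MAD and 0.0254 TPM in ULB, and ZIC1 at 0.0104 and 11.3 TPM. PGR was at 25.8 and 3.22 TPM and ESR1 at 5.74 and 10.7 TPM.

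A test of the difference itself (interaction of depot and diet, edgeR) passed for 57 of 14228 genes (0.401%) at an adjusted p below 0.05, 20 with a depot difference further towards MAD in NC and 37 further towards ULB in NC. These directions do not say in which diet the depots differed more. With the replicate number as a block, 896 and 900 genes passed, so the number of such genes depends on the model. SFRP4 had log2 fold changes of -4.48 in NC and -2.99 in WG, with means of 7.20 and 164 TPM in NC and 18.9 and 141 TPM in WG (difference -1.49, adjusted p = 0.0101, edgeR). LOX had means of 50.5 and 227 TPM in NC and 84.0 and 164 TPM in WG (difference -1.15, adjusted p = 0.0293, edgeR). GPC3, a glypican that binds growth factors, had means of 88.9 and 187 TPM in NC and 109 and 107 TPM in WG (difference -1.06, adjusted p = 4.40e-04, edgeR). CILP, a cartilage matrix protein, had 57.0 and 110 TPM in NC and 96.1 and 46.7 TPM in WG (difference -1.91, adjusted p = 2.32e-04, edgeR), so that its means changed order between diets. PCOLCE2, an enhancer of procollagen cleavage, had 175 and 129 TPM in NC and 249 and 67.3 TPM in WG (difference -1.37, adjusted p = 1.65e-04, edgeR), so that its depots lay further apart in WG. The same held for FBN1, fibrillin-1, with log2 fold changes of 0.22 in NC and 1.56 in WG, and MFAP5, a microfibril protein, with 0.73 and 2.45. LOX missed the threshold without ULB 2 (adjusted p = 0.22, edgeR) or ULB 7 (0.0551). GLYATL2, a glycine acyltransferase with a difference of -3.68, rested on ULB 2, at 53.3 TPM against 0.0905 to 17.1 TPM in the other ULB libraries, and without it missed the threshold (-2.14, adjusted p = 0.0975, edgeR). In place of 20 genes further towards MAD and 37 further towards ULB, 3 and 29 passed without MAD 1, 5 and 18 without ULB 2, 5 and 21 without ULB 5, 10 and 29 without ULB 7, 13 and 32 without ULB 9, and 12 and 37 without ULB 12.

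**Figure D5:**
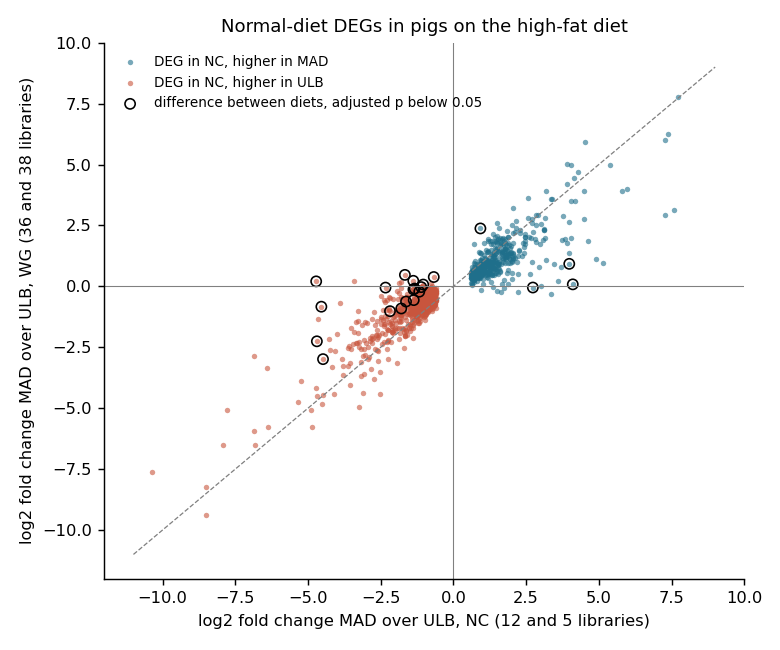
Log2 fold change of MAD over ULB in NC (x axis, 12 and 5 libraries) and in WG (y axis, 36 and 38 libraries) for the DEGs of NC, blue higher in MAD and red higher in ULB, with a dashed line of equality and circles where the difference between diets had an adjusted p below 0.05. Most points lie in the lower left and upper right quadrants, 435 of 443 and 628 of 639 with the same sign in WG.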

How the data were processed

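Gene expression (RNA-seq), chromatin contacts (Hi-C) and H3K27ac were measured by the authors in adipose tissues of pigs. Per the labels, the deposited estimated counts and TPM of PCGs were made by the authors with kallisto 0.43.0. Of 245 columns in the count table, 9 match no sample given here (7 named NC_ULB) and were not used. The authors deposited the A-B index as a score per 20-kb bin, TADs as intervals per sample, and enhancer signal, rank and super-enhancer mark from reads pooled per tissue (BWA 0.7.15, SICER, ROSE).

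Estimated counts were rounded. PCGs that exceeded 0.5 TPM in 80% or more of a tissue's libraries were tested with edgeR 4.0.16 (TMM, quasi-likelihood), and DEGs differed more than 1.5-fold with an adjusted p under 0.05. A-B indices were tested with limma 3.58.1, and TAD numbers by an exact permutation test. The diet comparison fitted the interaction of depot and diet. Scripts were tested on simulated data. Gene symbols (14821 of 21280 PCGs) and positions (13049, on Sscrofa11.1, whose 18 autosomes match the bins) came from RefSeq.

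Groups were taken from the labels. Depots came from the same pigs, but no label says that a number shared by MAD and ULB marks a pig. The deviations of same-numbered samples did not correlate over 0.1 in every pair. The tests do not pair them, although the RNA-seq median was 0.195 for same numbers and -0.0138 for other numbers. The members and gene lists were chosen with earlier results of these data known. Genes named were the 12 largest changes per direction without overlap, the 12 largest TPM differences, up to 4 DEGs of each list with its defining members, genes the study discusses, DEGs in switched bins and 5 interaction genes per direction. A few more were named after their values were seen. DESeq2 1.42.0, the exact test, other scalings, filters, blocks and libraries left out were alternatives. A few genes and a promoter are not reported here.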

Additional observations from a re-analysis of the deposited data

Results flagged for a closer look

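Among 174 measures in the 5 ULB libraries, 13 had 1 library far from the other 4, where chance gives about 1 in 20. ULB 12 was high in GATA6 (5.6 TPM), RBP4 (95.8 TPM) and ALB, the albumin gene (963 TPM, against 22.9 to 237), and in the summed TPM of the liver (2268), B cell and lymph node (248) and mesothelium (122) lists. ULB 9 was high in NKX2-3 (0.205 TPM), SLIT1 (0.22 TPM) and MYMK (0.614 TPM, with the others at 0). ULB 5 was high in ALDH1A2 (13.9 TPM) and RSPO1 (2.33 TPM), and ULB 7 in CEBPA (379 TPM, against 96.5 to 145) and in the summed skin and keratinocyte list (118 TPM, against 6.13 to 10.7).

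The depot difference on the log2 scale differed between NC and WG, by the interaction test of edgeR, in genes named above and in others. It lay further towards ULB in NC for SFRP4 (-1.49), LOX (-1.15), GSN (-0.87), GLYATL2 (-3.68), PCOLCE2 (-1.37), CILP (-1.91) and GPC3 (-1.06). It lay further towards MAD in NC for MYH11 (3.06), KLHL23 (1.66), TRPC4 (2.50) and PIP5K1B (2.47). Without MAD 1 the values were 1.06 for KLHL23, 1.66 for TRPC4 and 1.62 for PIP5K1B, and all 3 missed the threshold (adjusted p = 0.055, 0.0961 and 0.121, edgeR).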

How the results depend on the processing

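Of 131 named genes, none changed sign in an alternative where it was a DEG in that fit or in the main fit. Signs of genes that were DEGs in neither were not checked. Of 110 genes with an adjusted p below 0.05, 56 kept the same DEG status in every alternative that tested them, and 72 in all but the libraries of low mitochondrial share. For genes higher in MAD and in ULB (443 and 639), DESeq2 gave 739 and 750, the libraries of high mitochondrial share 269 and 385, those of low share 126 and 251, and libraries left out 226 to 464 and 398 to 642. The share of DEGs higher in MAD was 40.9%, and 49.6% by DESeq2. A/B variables numbered 2068 and 1452 at an adjusted p below 0.01, and 2956 to 5826 and 2863 to 3940 with a ULB sample left out, and turned direction after quantile normalization (5047 and 5339). Switches numbered 982 and 464 at 70% of samples, 180 and 237 after quantile normalization, and 241 to 439 and 134 to 208 with a sample left out. Bins past the threshold numbered 8835 and 9188 after quantile normalization, and with a sample left out 4343 to 8432 and 3773 to 5172. Genes with a diet interaction numbered 104 by DESeq2, 134 with no filter, 1796 with the replicate number as a block, and 23 to 49 with a library left out. Changed boundaries numbered 256 at 80% and 20%, and 619 to 688 with a sample left out. At 50% reciprocal overlap, 38.5% of MAD and 40.7% of ULB enhancer regions were shared. The cause of these changes was not tested.

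Of the replicate numbers, 5 occur in both tissues, and the deviations of same-numbered libraries correlated by -0.063 to 0.363 in RNA-seq, where 2 of 5 correlated best with their own number, and by -0.185 to 0.255 in Hi-C. The medians of same and of other numbers were 0.195 and -0.0138 in RNA-seq, and -0.0827 and -0.00671 in Hi-C. With the replicate number as a block, 514 and 703 genes passed, of which 290 and 422 were among the 443 and 639, no bin and no A/B variable passed (0 and 0), and 1796 genes had a diet interaction. With 5 ULB libraries, small differences are not detectable.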
